A study of Mus musculus with 278 samples.

Results

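The cells described here are spermatogonia in which Nanos2 transcripts were detected, and they are set against all other cells of the same study. Nanos2-detected cells were chosen by their own measured value, an FPKM (read fragments per kilobase of a transcript, relative to all mapped fragments of that cell) of at least 1 for Nanos2, and numbered 51 of 278. A gene is called detected in a cell by the same threshold throughout. The other 227 cells were below 1. All 278 samples are single cells from testes of untreated mice at postnatal day 6 that carry an EGFP reporter of Id4, and all were sorted as EGFP-positive, so both groups share the reporter, the age and the sort. Testes of at least 2 pups were pooled for each suspension, single cells were captured on a Fluidigm C1 chip, and cells seen by imaging to be dead or multiple were removed, per the labels' protocols. EGFP brightness was measured on the chip and the cells were ranked into quartiles from Q4 (dim) to Q1 (bright). Preparations 1 to 5 are the run numbers in the sample titles, taken here to be the 5 replicate preparations of the design text, which the labels do not say in words. The labels do not say whether they came from separate litters, so p-values describe only the spread between these preparations.

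Nanos2 encodes an RNA-binding protein with a zinc finger domain that is confined, in the mouse, to male germ cells and acts after transcription. With its partner Dnd1 it brings the CCR4-NOT deadenylase to target transcripts in cytoplasmic granules, and it can hold Mtor in such granules. In the postnatal testis it marks spermatogonia at the undifferentiated end of the lineage, where GDNF, a growth factor from Sertoli cells, acts through the receptors Gfra1 and Ret to maintain its expression. Loss of Nanos2 depletes the stem cells in mice, and forced expression holds cells in the undifferentiated state.

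In GRCm38 with the GENCODE M21 annotation, Nanos2 is a protein-coding gene on the plus strand, at chr7:18987400-18988962. The antisense gene Gm45058, at chr7:18987559-18988324 on the minus strand, overlaps its exons. Gm45058 has no row in the matrix, and reads of the overlap cannot be assigned to a strand here, since the counting is not stated to use strand.

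Both groups were germ cells by their markers. The germline genes Ddx4, Dazl, Mael and also Uchl1 were detected in 51 of 51 Nanos2-detected cells and in 227 of 227 other cells. The depth, which is not stated, was estimated from steps between the lowest values at a median of 614393 mapped fragments per cell, with a range of 168112 to 1287728. Nanos2-detected cells had 6240 ± 987 detected genes, against 6077 ± 1093 in other cells (SD of 5 preparation means, n = 5). The difference was 163 ± 207 genes, was above 0 in 4 of 5 preparations, and had a two-sided exact permutation p of 0.1875. The smallest p that 5 pairs allow is 0.0625, so no single value compared over preparations could pass 0.05. Estimated fragments averaged 589200 in Nanos2-detected cells and 595300 in other cells (difference -6044 ± 62600, exact p = 0.875).

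Markers of other testis cells were low in both groups, with 1 cell standing apart. Of 10 Sertoli cell genes, Amh and Fshr were listed at 0 in every cell. Summed Sertoli FPKM averaged 27.7 in Nanos2-detected cells (preparation means 0.757 to 97.1) and 7.76 in other cells (0.344 to 10.9). A single Nanos2-detected cell of preparation 2, in Q3, held 6 of the 10 genes, with Clu at 886 FPKM and Cst12 at 372 FPKM, beside 524 FPKM of Ddx4 and 6.34 FPKM of Nanos2. One other cell, of preparation 4, held 3 of them. Without these 2 cells the summed Sertoli FPKM was 9.60 in Nanos2-detected cells (0.757 to 28.9) and 7.67 in other cells (0.344 to 10.4). Sox9 was detected in 7 of 51 Nanos2-detected cells and 14 of 227 other cells, and Wt1 in 7 and 10. Without those 2 cells Ccdc91 differed by 1.65, Gfra1 by 1.21, Etv5 by 1.06 and Kit by -1.17 in mean log2(FPKM + 1), each within 0.1 of the value with them. The part of Sertoli genes in the remaining cells was not tested. Of 5 Leydig cell genes, Cyp17a1, Cyp11a1, Hsd3b1 and Insl3 were listed at 0 in every cell. Their summed FPKM came from the remaining 1 gene. It averaged 2.54 in Nanos2-detected cells (0 to 5.58) and 2.33 in other cells (1.00 to 3.58). For 5 endothelial genes the sum averaged 2.77 (0.347 to 7.94) and 3.20 (1.14 to 6.70). Pecam1 was detected in 4 of 51 Nanos2-detected cells and 24 of 227 other cells, and Cdh5 in 1 and 16. Summed FPKM of 8 peritubular and stromal genes averaged 2.84 in Nanos2-detected cells (0 to 6.34) and 3.42 in other cells (1.31 to 4.96), and that of 6 macrophage genes 11.6 (0 to 29.6) and 5.77 (2.25 to 12.4).

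Nanos2 itself ranged widely among the cells that had it. The values that follow chose the members and are a description with no test. The median was 15.9 FPKM, the lower and upper quartiles were 6.13 and 45.9 FPKM, and the highest cells had 330 and 250 FPKM, both in preparation 2. A level of at least 100 FPKM was reached by 5 of the 51 cells, 40 had at least 5 FPKM and 11 had less than 5. Below the threshold, 226 of 227 cells were listed at 0. The members just inside it had 1.03, 1.27 and 1.66 FPKM, and the highest cell outside it had 0.854 FPKM.

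The threshold falls among values worth 1 sequenced fragment. With the annotated transcript length of 1563 bases, the cell just outside the threshold held an estimated 1.17 fragments. Inside it, 5 cells held under 1.5 estimated fragments (1.16 to 1.18), and 29 of 51 held at least 10. The median was 15.3 fragments. A value of 0 therefore does not show that a cell lacked the transcript.

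**Figure D1:**
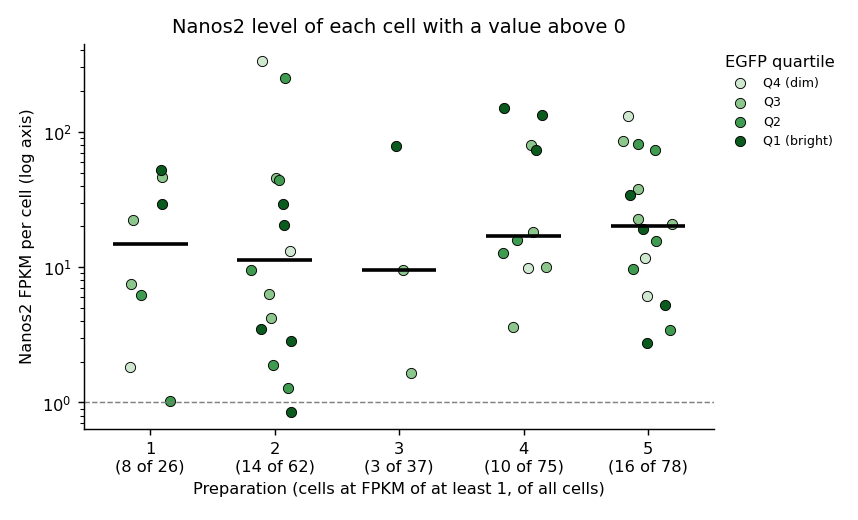
Nanos2 FPKM (log axis) of the 52 cells with a value above 0, by preparation; each point is a cell, coloured by EGFP quartile from Q4 (dim) to Q1 (bright), horizontal bars are medians of the Nanos2-detected cells and the dashed line is the threshold of 1. Levels run from 0.854 to 330 FPKM within preparation 2, and cells of all 4 quartiles appear at high and low levels.

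Preparations differed in how often Nanos2 was detected. The share was 8 of 26 cells (30.8%) in preparation 1, 14 of 62 (22.6%) in preparation 2, 3 of 37 (8.11%) in preparation 3, 10 of 75 (13.3%) in preparation 4 and 16 of 78 (20.5%) in preparation 5. Median Nanos2 in those cells was 14.8, 11.3, 9.56, 17.0 and 20.1 FPKM in preparations 1 to 5. Preparation 3 also had the narrowest transcriptomes, with 4640 genes per Nanos2-detected cell and 4419 per other cell, while the means of the other preparations lay between 5831 and 7186. With 3 cells, the mean of its Nanos2-detected group is the least certain, and many of the extreme differences given further on come from it.

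EGFP brightness was measured apart from the RNA, and the bright end held about the same part of both groups. Nanos2 was detected in 7 of 60 cells of Q4 (11.7%), 16 of 74 of Q3 (21.6%), 14 of 70 of Q2 (20.0%) and 14 of 74 of Q1 (18.9%). As means of 5 preparations these shares were 12.2 ± 9.45%, 23.9 ± 10.7%, 19 ± 13.4% and 19 ± 6.90% (SD). The bright quartile Q1 made up 28.4 ± 3.54% of Nanos2-detected cells and 27.6 ± 3.76% of other cells. The difference of 0.76 ± 5.25 percentage points had an exact permutation p of 0.875 (n = 5).

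The dim quartile made up a smaller part of the Nanos2-detected cells. Q4 held 11.1 ± 6.98% of Nanos2-detected cells and 22.3 ± 4.20% of other cells, a difference of -11.2 ± 6.27 percentage points that was below 0 in 5 of 5 preparations. Its exact permutation p of 0.0625 (two-sided, n = 5) is the smallest the design allows, and this quartile was singled out after its values were seen. Median Nanos2 among the detected cells was 11.7 FPKM in Q4, 19.5 in Q3, 11.2 in Q2 and 29.2 in Q1, and the cell with 330 FPKM was in Q4. Transcriptomes were narrower in dim cells: detected genes averaged 6028 in Nanos2-detected cells and 5655 in other cells of Q4, 6469 and 5963 in Q3, 6879 and 6143 in Q2, and 6261 and 6254 in Q1. The part of this breadth in the Q4 share was not tested.

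**Figure D2:**
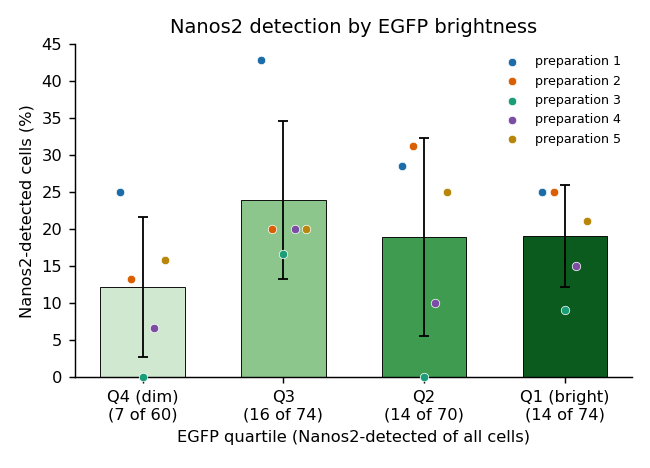
Share of cells (%) with Nanos2 at FPKM of at least 1 in each EGFP quartile, from Q4 (dim) to Q1 (bright); bars are means of 5 preparations, whiskers their SD and points the preparations. Q4 averages 12.2%, and the other quartiles lie between 19% and 23.9% with overlapping preparations.

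Across all genes, no difference between the groups passed the test. The mean of log2(FPKM + 1) over the cells of each preparation and group was fitted with limma, with preparation as a block, Nanos2 left out and p-values adjusted over the 10451 genes tested. Of these genes 0 (0%) had an adjusted p under 0.05, and the smallest adjusted p was 0.309. At an unadjusted p under 0.05, 409 genes (3.91%) were higher in Nanos2-detected cells and 216 (2.07%) lower. These percentages are the background against which the counts of every gene list are to be read. If no gene differed, about 523 of the 10451 genes would be expected at that unadjusted p, both directions together. The median difference of all genes was 0.05 on the log2 scale, and 5922 genes (56.7%) had a difference above 0. That 56.7% is the background for counts of list genes above 0. All differences given for genes are Nanos2-detected minus other cells on the log2(FPKM + 1) scale, which understates the change of low genes, and none of the genes named passed in limma.

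**Figure D3:**
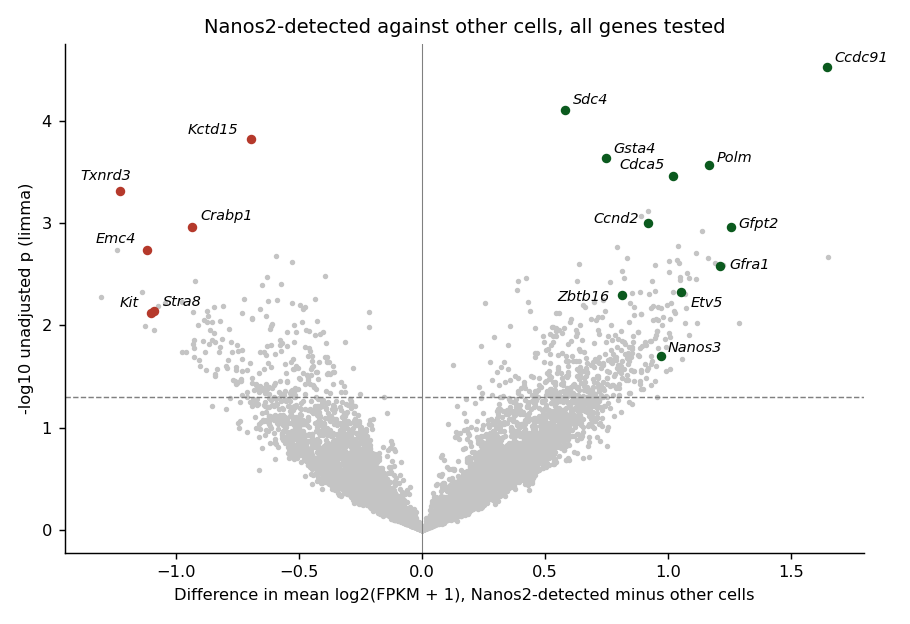
Difference in mean log2(FPKM + 1), Nanos2-detected minus other cells (x axis), against -log10 of the unadjusted limma p (y axis) for the 10451 genes tested; the dashed line is p = 0.05, and green and red points are named genes with differences above and below 0. No gene passed after adjustment, and Ccdc91 has the smallest p.

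Of the genes with the smallest p values on the higher side, Ccdc91, a coiled-coil protein of the trans-Golgi network (chr6:147475828-147632612, plus strand), came first. Its mean log2(FPKM + 1) in preparations 1 to 5 was 5.17, 5.09, 4.27, 4.36 and 4.32 in Nanos2-detected cells, against 3.80, 3.67, 2.71, 2.36 and 2.58 in other cells. Every Nanos2-detected mean was above every mean of the other cells. Ccdc91 was picked by its p from these same means, so that separation adds no support of its own. Other named genes, such as Polm, Gfpt2, Kctd15 and Txnrd3, also had no overlap of means. The share over all genes was not counted. The group means of Ccdc91 were 51.4 FPKM in Nanos2-detected cells and 28.2 FPKM in other cells. The difference was 1.65 ± 0.29 (SE; limma adjusted p = 0.309), above 0 in 5 of 5 preparations. Exons of the antisense gene Gm6288 overlap those of Ccdc91.

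Sdc4, a heparan sulfate proteoglycan of the cell surface, followed. It was abundant in both groups, at 2043 FPKM in Nanos2-detected cells and 1695 FPKM in other cells, with a difference of 0.58 ± 0.11 (limma adjusted p = 0.404) that was above 0 in 4 of 5 preparations and was 0.37 without preparation 5. Its preparation means were 10.3, 10.8, 10.6, 11.5 and 10.9 in Nanos2-detected cells, against 10.4, 10.4, 9.98, 11 and 9.87 in other cells, and the groups overlapped. Among the next genes, Gsta4, a glutathione S-transferase, differed by 0.75 ± 0.16. Polm, a DNA polymerase of end joining, differed by 1.17 ± 0.25, and Cdca5, the cohesin-protecting factor sororin, by 1.02 ± 0.23. Each of these 3 was above 0 in 5 of 5 preparations, and their adjusted p-values ran from 0.565 to 0.602 in limma. Gfpt2, an enzyme of the hexosamine pathway, Atg5, an autophagy factor, and Dpysl2, a cytoskeletal regulator, differed by 1.25 ± 0.31, 0.79 ± 0.21 and 1.04 ± 0.28 with an adjusted p of 0.746. The other genes of this set, Ggnbp1, Atp6v1e1 and Cyp2c55, differed by 0.92 ± 0.22, 0.89 ± 0.22 and 1.14 ± 0.29, also at 0.746. Without preparation 5, Cyp2c55 differed by 0.62.

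On the lower side the first gene was Kctd15, a BTB domain protein (chr7:34639014-34656732, minus strand). It was listed at 0 in all 51 Nanos2-detected cells, which allows a share of up to 5.88% of cells with a value (3 cells of 51, counting error only). It was detected in 37 of 227 other cells (16.3%), with 11.8% to 22.2% of other cells in every preparation. The fitted difference was -0.70 ± 0.14 (limma adjusted p = 0.527). Txnrd3, a thioredoxin and glutathione reductase of the testis, averaged 4.45 FPKM in Nanos2-detected cells and 15.9 FPKM in other cells, a difference of -1.23 ± 0.28 that was below 0 in 5 of 5 preparations (adjusted p = 0.721). Emc4, a subunit of the endoplasmic reticulum membrane complex, averaged 36 FPKM in Nanos2-detected cells and 78.1 FPKM in other cells (difference -1.12 ± 0.30, below 0 in 5 of 5 preparations, adjusted p = 0.746). The rest of this set, Crabp1 aside, was 9130023H24Rik, Tmem243, Qsox2, Eif1ax, Cyp2r1, Tvp23b, Ccdc122 and Fndc4, with differences from -1.24 to -0.39 and an adjusted p of 0.746 each.

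The receptor of the GDNF pathway was detected more often among Nanos2-detected cells. Gfra1, the ligand-binding GDNF receptor, was detected in 46 of 51 Nanos2-detected cells (90.2%) and in 151 of 227 other cells (66.5%). By preparation the shares were 100%, 92.9%, 100%, 90% and 81.2% of Nanos2-detected cells, against 94.4%, 77.1%, 67.6%, 61.5% and 54.8% of other cells. Each preparation had the larger share among its Nanos2-detected cells, by 21.7 ± 10.9 percentage points (SD, n = 5; exact permutation p = 0.0625, adjusted over 12 genes 0.375). Across preparations the shares overlapped, with 81.2% of Nanos2-detected cells in preparation 5 and 94.4% of other cells in preparation 1.

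The level of Gfra1 gave the same order as a mean of log2(FPKM + 1). That mean includes cells at 0, so it is not separate from the share. In preparations 1 to 5 its mean log2(FPKM + 1) was 5.17, 4.43, 7.62, 3.95 and 4.02 in Nanos2-detected cells, against 5.05, 3.61, 3.70, 2.78 and 2.56 in other cells. The 3 cells of preparation 3 stood highest, the gap in preparation 1 was 0.11, and the groups overlapped. The difference was 1.21 ± 0.34 (unadjusted p = 0.00261, limma adjusted p = 0.746), above 0 in 5 of 5 preparations. As mean FPKM the order was reversed in preparation 1, with 41.1 in Nanos2-detected cells and 53.6 in other cells, and kept in the other preparations. Over all cells the median was 27.3 FPKM in Nanos2-detected cells and 10.8 FPKM in other cells. Gfra1 lies at chr19:58235604-58455909 on the minus strand, where the antisense gene Gm16277 overlaps an exon.

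Ret, the signalling partner of Gfra1, was also detected more often among Nanos2-detected cells. It was detected in 45 of 51 Nanos2-detected cells (88.2%) and 164 of 227 other cells (72.2%), and the share was larger in Nanos2-detected cells in 5 of 5 preparations (11.8 ± 7.69 percentage points, exact permutation p = 0.0625, adjusted 0.375, n = 5). Its level, in a mean that includes cells at 0, differed by 0.31 ± 0.30 (limma adjusted p = 0.913) and was above 0 in 5 of 5 preparations. The sign turned to -0.24 with cells matched on detected genes and to -0.0039 for the log of the mean.

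Etv5, an ETS transcription factor induced by GDNF and FGF in spermatogonial cultures (chr16:22381309-22439719, minus strand), was detected in 49 of 51 Nanos2-detected cells (96.1%) and 177 of 227 other cells (78%). Its mean log2(FPKM + 1) was 5.81, 4.74, 7.20, 4.34 and 4.98 in Nanos2-detected cells, against 5.38, 4.38, 4.33, 3.79 and 3.11 in other cells. Again the Nanos2-detected mean was the higher in each preparation, most so in preparations 3 and 5, and the groups overlapped. The difference was 1.05 ± 0.32 (limma adjusted p = 0.746). Without preparation 5 it was 0.68.

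Zbtb16, the transcription factor PLZF of undifferentiated spermatogonia (chr9:48654297-48836222, minus strand), was detected in 51 of 51 Nanos2-detected cells and in 210 of 227 other cells (92.5%). The lowest Nanos2-detected cell had 5.81 FPKM, and the medians were 62.4 FPKM in Nanos2-detected cells and 35.6 FPKM in other cells. Preparation means were 5.96, 6.26, 5.30, 5.45 and 5.66 in Nanos2-detected cells, against 5.76, 5.67, 3.54, 4.79 and 4.49 in other cells. The difference of 0.81 ± 0.25 was above 0 in 5 of 5 preparations (limma adjusted p = 0.746), and with cells matched on detected genes it was 0.39.

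Other genes tied to the stem cell state showed smaller differences. Id4, the gene of the reporter, was detected in 24 of 51 Nanos2-detected cells (47.1%) and 92 of 227 other cells (40.5%), with a difference in level of 0.22 ± 0.30 that was above 0 in 3 of 5 preparations. Bcl6b and Lhx1, both induced by GDNF in culture, differed by 0.60 ± 0.36 and 0.32 ± 0.25. Sall4 and Foxo1, factors of the undifferentiated pool, differed by 0.15 ± 0.14 and 0.20 ± 0.24. The adjusted p of these genes in limma was 0.853 or above.

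Of 26 tested genes of a stem cell list, 20 were above 0 and 5 were higher at an unadjusted p under 0.05, none lower, and none passed. The median difference of the list was 0.25, against 0.05 for all genes. A list of GDNF and FGF response genes, which shares members with it, had 18 of 22 genes above 0, 3 higher and none lower at an unadjusted p under 0.05, none passing, and a median of 0.26. Of all genes 56.7% were above 0, the unadjusted shares are the 3.91% and 2.07% given above, and no list was tested as a whole.

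Rare stem cell transcripts lay below the filter of 10% of cells and were not tested. Pax7, which marks a small stem cell subset in mice, was detected in 6 of 51 Nanos2-detected cells (11.8%), found in all 5 preparations, and in 6 of 227 other cells (2.64%). Eomes was detected in 5 Nanos2-detected cells (9.80%) and 21 other cells (9.25%), T in 4 (7.84%) and 10 (4.41%), and Shisa6 in 1 cell of each group.

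**Figure D4:**
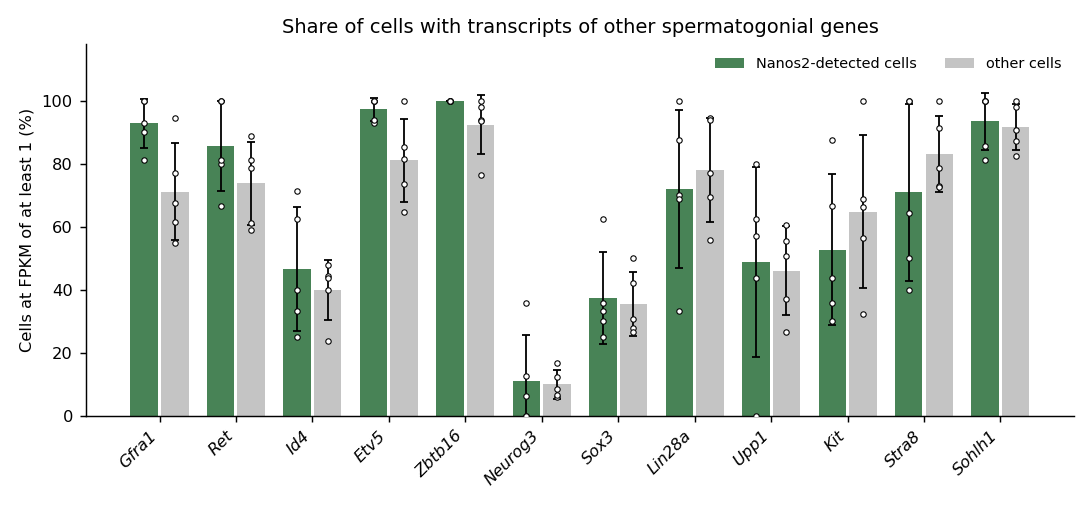
Share of cells (%) in which each of 12 spermatogonial genes was detected (FPKM of at least 1), in Nanos2-detected cells (green, left) and other cells (grey, right); bars are means of 5 preparations, whiskers their SD and points the preparations. Gfra1 averages 92.8% in Nanos2-detected cells and 71.1% in other cells, and Kit averages 52.7% and 64.7%. For both genes the preparation shares of the groups overlap.

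Genes of progenitor spermatogonia gave small differences of both signs. Neurog3, a basic helix-loop-helix factor of progenitors, was detected in 7 of 51 Nanos2-detected cells (13.7%) and 21 of 227 other cells (9.25%), Sox3 in 18 (35.3%) and 84 (37.0%), Lin28a in 40 (78.4%) and 174 (76.7%), and Upp1 in 28 (54.9%) and 104 (45.8%). These counts pool preparations. As means of 5 preparations the shares were 10.9% and 9.93% for Neurog3 and 37.3% and 35.4% for Sox3. For Lin28a the means were 71.9% and 78.1%, and for Upp1 48.7% and 46.1%. The share among Nanos2-detected cells was the larger in 1 of 5 preparations for Neurog3, 2 for Sox3, 1 for Lin28a and 3 for Upp1. Their levels differed by 0.04 ± 0.22, -0.10 ± 0.22, 0.01 ± 0.33 and 0.46 ± 0.37, and the first 3 of these changed sign under some settings. Rarg, the retinoic acid receptor of undifferentiated cells, differed by 0.12 ± 0.21. Of 9 progenitor genes tested, 6 were above 0, against 56.7% of all genes. In this list 1 gene was higher at an unadjusted p under 0.05 and none passed, with a median difference of 0.04.

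That gene was Nanos3, a relative of Nanos2 present in most undifferentiated spermatogonia. Its preparation means were 4.97, 5.59, 5.52, 7.52 and 5.13 in Nanos2-detected cells, against 6.30, 5.07, 3.10, 5.08 and 4.09 in other cells, and the groups overlapped. The difference was 0.97 ± 0.37 (limma adjusted p = 0.766), from -1.34 in preparation 1 to 2.44 in preparation 4, and it turned to -0.16 with the number of detected genes as a covariate. Without preparation 4 it was 0.57.

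Kit and Stra8, which mark entry into differentiation, had lower values in Nanos2-detected cells in most preparations. Kit, the receptor of stem cell factor (chr5:75574916-75656722, plus strand), was detected in 24 of 51 Nanos2-detected cells (47.1%) and 140 of 227 other cells (61.7%). Its mean log2(FPKM + 1) was 3.24, 1.88, 3.28, 1.09 and 1.5 in Nanos2-detected cells, against 3.91, 3.08, 1.68, 2.88 and 2.83 in other cells. The Nanos2-detected mean was lower in 4 of 5 preparations and higher in preparation 3, and the groups overlapped. The difference was -1.10 ± 0.36 (limma adjusted p = 0.746).

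Stra8, a retinoic acid target needed for meiosis (chr6:34920163-34939344, plus strand), was detected in 32 of 51 Nanos2-detected cells (62.7%) and 180 of 227 other cells (79.3%). Preparation means were 6.58, 3.30, 8.12, 2.46 and 2.75 in Nanos2-detected cells, against 6.23, 4.46, 6.48, 4.44 and 4.39 in other cells. In 3 of 5 preparations the Nanos2-detected mean was the lower, and in preparations 1 and 3 the higher. The difference was -1.09 ± 0.35 (limma adjusted p = 0.746) and was -0.48 with the number of detected genes as a covariate. Sohlh1, a transcription factor of differentiating spermatogonia, was detected in 46 of 51 Nanos2-detected cells and 206 of 227 other cells and differed by -0.52 ± 0.28.

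The cells were also sorted by Gfra1 and Kit together. Gfra1 without Kit was found in 25 of 51 Nanos2-detected cells (49%) and 50 of 227 other cells (22%), more often in 4 of 5 preparations (difference 23.4 ± 21.7 percentage points, exact permutation p = 0.125, n = 5). Both genes were found in 21 (41.2%) and 101 (44.5%). Kit without Gfra1 was found in 3 Nanos2-detected cells (5.88%) and 39 other cells (17.2%), less often in 5 of 5 preparations (difference -10.3 ± 7.10 percentage points, exact permutation p = 0.0625, n = 5). For Gfra1 and Kit each alone, the differences were 21.7 ± 10.9 and -12.0 ± 28.2 percentage points, and whether the combinations differ from these was not tested. Neither was found in 2 (3.92%) and 37 (16.3%). These 4 combinations were chosen after values of both genes were known.

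**Figure D5:**
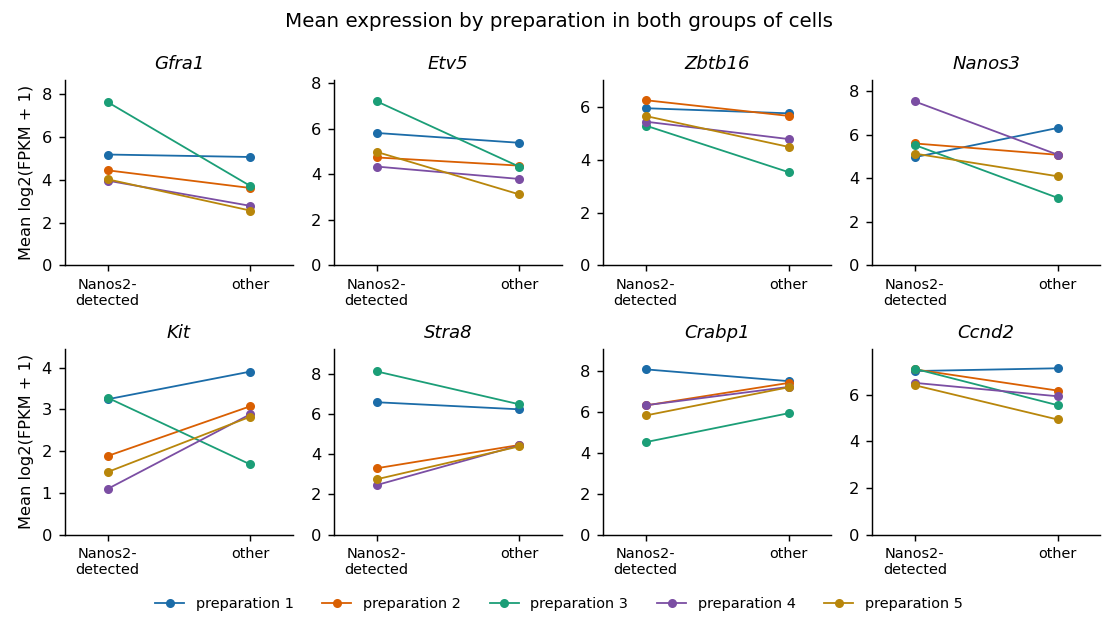
Mean log2(FPKM + 1) of 8 genes in Nanos2-detected cells (left) and other cells (right), with 1 line per preparation. Gfra1, Etv5 and Zbtb16 slope the same way in all 5 preparations, while Kit, Crabp1, Ccnd2 and Nanos3 have 1 preparation and Stra8 has 2 that slope the other way.

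Of 11 genes of a differentiation list, 4 were above 0 and 7 below, against 56.7% of all genes above 0. In the list 1 gene was higher and 3 were lower at an unadjusted p under 0.05, none passing, with a median of -0.17. The higher one was Ccnd2, a D-type cyclin that rises in differentiating spermatogonia and is also expressed in cycling cells. It averaged 134 FPKM in Nanos2-detected cells and 107 FPKM in other cells, with a difference of 0.92 ± 0.23 (limma adjusted p = 0.746) above 0 in 4 of 5 preparations. Exons of the antisense genes 9330179D12Rik and Gm43126 overlap those of Ccnd2.

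Retinoid genes were mostly below 0, against a background of 56.7% of all genes above 0. Crabp1, a cytoplasmic binding protein for retinoic acid (chr9:54764748-54773110, plus strand), had means of 8.06, 6.30, 4.51, 6.31 and 5.81 in Nanos2-detected cells, against 7.48, 7.40, 5.92, 7.20 and 7.18 in other cells. The Nanos2-detected mean was lower by 0.90 to 1.41 in preparations 2 to 5 and higher in preparation 1, and the groups overlapped. The difference was -0.93 ± 0.23 (limma adjusted p = 0.746), and was -0.58 with the number of detected genes as a covariate and -0.61 with matched cells. Of 12 retinoid genes tested, 3 were above 0 and 9 below, with none higher and 3 lower at an unadjusted p under 0.05 and a median of -0.16. Stra8 stands in this list and in the differentiation list.

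Fitted differences were below 0 for all transcripts of a list reported as NANOS2 targets in the mouse, though not in every preparation. Of all genes, 56.7% were above 0, and the list was not tested as a whole. The 5 genes of this list were Stra8, Sycp3, Sohlh2, Taf7l and Dazl, of which 2 were lower at an unadjusted p under 0.05 and none passed. Sycp3, a protein of the synaptonemal complex, averaged 565 FPKM in Nanos2-detected cells and 797 FPKM in other cells (difference -0.31 ± 0.11, limma adjusted p = 0.748, below 0 in 4 of 5 preparations). Taf7l and Dazl differed by -0.10 ± 0.14 and -0.08 ± 0.06, each below 0 in 3 of 5 preparations. Taf7l changed sign under some settings, and Sycp3 did so as a share of cells. Sohlh2, a transcription factor of early differentiation, differed by -0.41 ± 0.29, although it was above 0 in 3 of 5 preparations. Of 17 meiotic genes tested, 3 were above 0 and 14 below, with 2 lower and none higher at an unadjusted p under 0.05 and a median of -0.09. The second was Syce3, also of the synaptonemal complex, with a difference of -0.87 ± 0.32.

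The protein partners of NANOS2 gave differences of both signs, none of which passed. Dnd1 differed by 0.39 ± 0.31, and the RNA-binding protein gene Pum2 by -0.48 ± 0.31. Cnot1, the scaffold of CCR4-NOT, differed by 0.24 ± 0.30, and Ddx6, a helicase of P-bodies, by 0.46 ± 0.26. Mtor differed by 0.12 ± 0.34. Of 14 CCR4-NOT genes tested, 11 were above 0, against 56.7% of all genes. In that list 1 gene was higher at an unadjusted p under 0.05, none lower, with a median of 0.24. It was Cnot6l, a catalytic deadenylase subunit, at 77.1 FPKM in Nanos2-detected cells and 62.4 FPKM in other cells (difference 0.95 ± 0.27, limma adjusted p = 0.746, above 0 in 5 of 5 preparations). P-body genes had 6 of 12 above 0 and a median of 0.00, and mTORC1 genes 12 of 16 and a median of 0.08, with none at an unadjusted p under 0.05 in either list.

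Cell cycle lists leaned above 0, with 56.7% of all genes above 0 as background. Whether these lists differ from that share was not tested. Of 42 genes of the G1/S phase 31 were above 0, with 4 higher and 1 lower at an unadjusted p under 0.05 and a median of 0.18. Mcm4, a subunit of the replicative helicase, had means of 7.61, 7.48, 7.48, 6.97 and 7.66 in Nanos2-detected cells, against 7.46, 6.97, 6.02, 6.57 and 6.72 in other cells (difference 0.64 ± 0.18, limma adjusted p = 0.746). Cdc45, its partner, differed by 0.57 ± 0.20, and the ubiquitin ligase gene Ubr7 by -0.83 ± 0.34. Of 53 genes of the G2/M phase 40 were above 0, with 5 higher and none lower at an unadjusted p under 0.05 and a median of 0.22. Aurkb, a kinase of the chromosomal passenger complex, differed by 0.93 ± 0.28, and Ckap5, a microtubule polymerase, by 0.51 ± 0.19, each above 0 in 5 of 5 preparations. No gene of either list passed, and none was compared by cell cycle phase.

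Other lists were close to all genes, of which 56.7% were above 0, or small. Of 77 cytosolic ribosomal protein genes, 46 were above 0, none had an unadjusted p under 0.05, and the median was 0.01. Of 14 immediate early and heat shock genes, 12 were above 0 with a median of 0.15, and the nuclear receptor Nr4a1 was the only one at an unadjusted p under 0.05 (0.56 ± 0.26). Of 5 DNA methylation genes 4 were above 0, with Uhrf1, which recruits Dnmt1 to replicated DNA, at 0.50 ± 0.18. Of 15 germ cell genes 9 were above 0, with a median of 0.06.

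Among the Nanos2-detected cells, those with little Nanos2 had means of Gfra1 and Nanos3 near those of cells with more, while Ret and Kit lay further apart. The cells with little Nanos2 also came more from certain preparations. The 40 cells with at least 5 FPKM of Nanos2 and the 11 cells below 5 FPKM were described over all preparations, with no test. This split uses the value that chose the members, and cells are not replicates. Mean log2(FPKM + 1) of Gfra1 was 4.50 in the 40 cells, 4.54 in the 11 cells and 3.21 in the other cells. Etv5 was at 4.93, 5.48 and 3.94, and Nanos3 at 5.69, 5.83 and 4.61. Zbtb16 was at 5.91, 5.43 and 4.78, so that its low-Nanos2 cells lay between. Ret was at 3.42 in the 40 cells, 2.67 in the 11 cells and 2.87 in the other cells, and its low-Nanos2 cells did not stand above the other cells. Kit was at 2.07, 1.31 and 2.81, and it was detected in 52.5% of the 40 cells, 27.3% of the 11 cells and 61.7% of the other cells. Preparations 1 and 2 held 15 of the 40 cells, 7 of the 11 cells and 66 of the 227 other cells. Gfra1 in other cells was at 5.05, 3.61, 3.70, 2.78 and 2.56 in preparations 1 to 5. Set against other cells of the same preparation, Gfra1 differed by 1.23 in the 40 cells and 0.92 in the 11 cells, and Etv5 by 0.98 and 1.21. By the same measure Zbtb16 differed by 0.95 and 0.23, Ret by 0.50 and -0.41, and Kit by -0.93 and -1.73.

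Gfra1 was also described within EGFP quartiles. Taken over the cells of all preparations, mean log2(FPKM + 1) of Gfra1 in Q4 was 5.16 in 7 Nanos2-detected cells and 1.97 in 53 other cells. In Q3 it was 4.67 and 2.94, in Q2 4.05 and 3.48, and in Q1 4.46 and 4.33. Nanos2-detected cells had means between 4.05 and 5.16 in all quartiles, while among the other cells the mean was lower in each dimmer quartile. The 7 cells of Q4 came from 4 preparations, with none from preparation 3. Set against other cells of the same preparation and quartile, Nanos2-detected cells were higher in Gfra1 by 3.08 in Q4, 1.49 in Q3, 0.57 in Q2 and 0.13 in Q1. Etv5 was at 4.55 in Nanos2-detected cells and 3.01 in other cells of Q4, at 5.16 and 3.43 in Q3, at 5.22 and 4.35 in Q2 and at 5.00 and 4.86 in Q1. Kit was lower in Nanos2-detected cells in Q4 (1.70 and 2.58), Q3 (2.16 and 3.33) and Q1 (1.15 and 2.77), and near level in Q2 (2.46 and 2.53). Whether the gaps differ between quartiles was not tested, since several combinations of preparation and quartile hold no Nanos2-detected cell or only 1. With quartile in the limma fit, Gfra1 differed by 1.11, Etv5 by 0.98 and Kit by -1.15, and 0 genes passed.

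The number of genes detected per cell moved with the groups beside these values. With that number as a covariate, 186 genes were higher and 227 lower at an unadjusted p under 0.05, against 409 and 216 without it. With each Nanos2-detected cell matched to another cell of its preparation (6464 and 6452 genes on average), the counts were 259 and 266. Under both settings 0 genes passed. Gfra1 was 0.83 and 1.13 in these fits, Etv5 0.86 and 0.73, Kit -0.82 and -0.68. Aurkb was 0.59 and 0.34. With the covariate Sdc4 was 0.36, Gsta4 0.45, Ggnbp1 0.47, Atp6v1e1 0.57 and Emc4 -0.68, and with matched cells Ccnd2 was 0.54, Gfpt2 0.77 and Atg5 0.47. Averaging FPKM before taking the log, which gives more weight to cells with high values, moved the median of all genes to -0.11. On that scale Gfra1 differed by 0.55, Etv5 by 0.46, Zbtb16 by 0.47, Ccnd2 by 0.40, Ccdc91 by 0.87, Kit by -1.09 and Stra8 by -0.86.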

How the data were processed

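Expression values are FPKM per gene and cell as deposited by the authors. This unit was inferred from the quantifier and the values, because no header names it. The tools TopHat, Cufflinks, Picard and FastQC and the genome build mm10 (GRCm38) come from the submitters' processing notes. Versions, settings, annotation and use of strand were not given in the sources used here. The protocols and the design text number the dim quartile differently; the design text was followed.

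Of 23354 genes, 6247 are at 0 in every cell, and 21695 symbols matched GENCODE M21, which gave coordinates and overlaps. Of the named genes, exons of Ggnbp1, Atp6v1e1, Emc4, 9130023H24Rik, Tmem243, Qsox2, Ccdc122, Kctd15, Cyp2c55, Id4, Sall4, Foxo1, Dnd1, Cnot1, Neurog3, Lin28a, Sycp3, Cdc45 and Ubr7 also overlap opposite-strand genes, and those of Ggnbp1 and Ckap5 overlap same-strand ones. Depth is unknown from the files and was estimated from steps of 2110 genes with 1 transcript of at least 1500 bases. Estimates from separate gene sets lay within 1.2-fold in 256 of 278 cells. No cells were duplicates (highest correlation 0.692).

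Cells are not replicates. The mean of log2(FPKM + 1) over cells was taken per preparation and Nanos2 group, giving 10 means weighted by cell number. The fit used limma 3.58.1 under R 4.3.3 (intensity trend, preparation as block, 4 residual degrees of freedom, two-sided, Benjamini-Hochberg) for the 10451 genes detected in 10% of cells or more (FPKM of at least 1), without Nanos2. Single values were compared with exact permutation (sign flip) tests over 5 preparations. The block assumes that the number in a sample title marks the cell preparation. Deviations of same-numbered means from their group means correlated at 0.15 or above across genes (median 0.23, against -0.09 between preparations). Taking off group means itself pushes the values between preparations below 0. Any batch shared by same-numbered cells would correlate them, so these values cannot show what the number marks. The fit was tested on simulated data.

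Named genes were, per direction, the 12 of smallest p with the same sign in at least 4 preparations, a fixed set of spermatogonial and NANOS2-related genes, and up to 2 genes per list and direction at an unadjusted p under 0.05; 1 gene of the fixed set is not reported here. The members and lists were chosen with earlier results of these data known. No sequences are shown.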

Additional observations from a re-analysis of the deposited data

Results flagged for a closer look

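Of 77 sets of 5 preparation values examined (differences within preparations, shares and Nanos2 levels), 8 held 1 preparation far from the other 4. The cut-off used would nominally flag about 1 in 20 sets of 5 independent normal values. That rate was not measured here. The sets share cells and some genes were picked by their p-values, so it need not hold.

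Preparation 5 stood apart for Cyp2c55, with a difference of 2.27 (log2) against 0.21 to 0.75 in the other preparations. In preparation 1 the difference was 0.58 for Crabp1, against -1.41 to -0.90 elsewhere, and 0.86 for Sox3, against -0.37 to -0.16. Preparation 2 had a difference of 1.14 for Neurog3, against -0.53 to -0.25 in the other 4. The difference in preparation 3, which has 3 Nanos2-detected cells, was 1.29 for Ckap5 against 0.39 to 0.51, and 1.86 for Uhrf1 against 0.13 to 0.51. The share of Q1 among Nanos2-detected minus other cells was -8.33 percentage points in preparation 1 and 0.81 to 3.92 elsewhere. The share of cells with Zbtb16 differed by 23.5 percentage points in preparation 3 and by 0 to 6.45 in the others.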

How the results depend on the processing

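With each of 14 other fits, 5 fits that left out 1 preparation, and 1 fit added after seeing the data (without the 2 cells with at least 3 Sertoli cell genes), limma passed 0 genes; the smallest adjusted p in any was 0.0528, without preparation 1. Unadjusted counts moved by over 1.5 times with no replicate block (152 higher, 30 lower), with the detected-gene covariate (186 higher), with matched cells (259 higher), with no filter (679 lower of 17106 genes) and with the log of the mean (152 higher, 560 lower); the log of the mean also moved the median of all genes to -0.11, against 0.05. The block changed no call.

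Of 60 named genes, 49 kept their sign throughout and 11 did not. With detected genes as covariate Lhx1 was -0.10, Nanos3 -0.16, Sox3 0.12 and Taf7l 0.16. With matched cells Ret was -0.24, Mtor -0.21, Sox3 0.024 and Lin28a -0.54. With the log of the mean Ret was -0.0039, Mtor -0.26 and Neurog3 -1.12. With Nanos2 of at least 5, Foxo1 was -0.056, Neurog3 -0.065, Lin28a -0.15 and Rarg -0.077. With no weights Neurog3 was -0.075 and Lin28a -0.23. Lin28a was -0.060 with quartile in the fit and -0.072 with a pseudocount of 0.1. As shares of cells, Lin28a differed by -2.48, Taf7l by 0.40 and Sycp3 by 0.40 percentage points. Leaving out 1 preparation gave -0.032 to 0.36 for Mtor, -0.37 to 0.19 for Neurog3, -0.27 to 0.30 for Lin28a and -0.17 to 0.046 for Taf7l. The cause was not tested.

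The Q1 share differed by -0.027 to 4.44 points under its alternatives, the share in Q1 or Q2 by -1.48 points, and the Q4 share, examined after seeing the data, by -13.0 to -8.89. Depth limits the grouping: 5 Nanos2-detected cells rest on about 1 fragment, and cells at 0 may hold the transcript.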

Other observations

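Other stem-associated genes, picked after their values were seen, varied in which group they were detected more often. Their shares are given over the cells of all preparations, with no test. All but Nanog were among the genes tested in limma, where no gene passed. Tspan8, a tetraspanin of the cell surface, was detected in 33 of 51 Nanos2-detected cells (64.7%) and 105 of 227 other cells (46.3%). Erbb3, a receptor of the EGF receptor family, was detected in 19 (37.3%), from 4 preparations, and 45 (19.8%). Foxc2, a forkhead transcription factor, was detected in 27 (52.9%) and 93 (41%), and Lhx2, a LIM homeobox factor, in 9 (17.6%) and 40 (17.6%). Plvap was detected in 4 Nanos2-detected cells (7.84%), from 3 preparations, and 36 other cells (15.9%). Tert was detected in 4 Nanos2-detected cells (7.84%), all from 1 preparation, and 24 other cells (10.6%). Nanog was found in 0 of 51 Nanos2-detected cells, which allows a share of up to 5.88%, and in 9 of 227 other cells (3.97%), so a difference was not detectable.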
